A study of Mus musculus with 14 samples.

Results

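The replication-dependent histone genes are the clustered, many-copy genes for H2A, H2B, H3, H4 and the linker histone H1. Members were chosen by symbol, as all probes of the Illumina MouseWG-6 v2.0 array whose gene begins with H1f, or with H2ac, H2bc, H3c or H4c and a number (or the older Hist names), and selected on the measured detection p-value, which had to be under 0.05 on 2 or more of the 14 arrays. The array carried 89 such probes for 59 genes, and 75 probes for 52 genes were kept, out of 24445 kept probes and 12444 genes tested in all. Of the 52 genes 3 encode H1, 16 H2A, 12 H2B, 9 H3 and 12 H4. By chromosome 42 lie on chromosome 13, 9 on chromosome 3 and 1, H1f10, on chromosome 6. The 7 genes not kept were H1f1, H1f3, H1f4, H1f6, H1f7, H1f8 and H2bc1. Just outside the threshold was H1f1, detected on 1 array (lowest detection p 0.0449), and just inside it were H2ac1 and further probes of H1f10, H2bc4 and H3c10, each detected on 2 arrays. The chosen probe of 40 of the 52 genes was detected on all 14 arrays.

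The core histones H2A, H2B, H3 and H4 form the nucleosome around which DNA is wound, and H1 binds the linker between nucleosomes. Their replication-dependent genes are transcribed mainly in S phase, and most of their mRNAs end in a conserved stem-loop, bound by SLBP, in place of a poly(A) tail. Replacement variants such as H3.3 and CENP-A come from genes outside the clusters with polyadenylated mRNAs, and their synthesis is not tied to S phase.

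All cells were sorted from lungs of Foxd1-Cre;Rosa26-tdTomato mice crossed with Coll-GFP mice, for which the study's methods give an age of 8 to 12 weeks. Peri cells carried the FoxD1-lineage reporter alone, PeriFibro cells the lineage reporter and GFP driven by a collagen promoter, and Fibro cells GFP alone, so that Foxd1-Cre marks descent from Foxd1-expressing cells and not current Foxd1 expression. Mice received intratracheal bleomycin at 0.8 U/kg with harvest on day 7 (Peri, 2 arrays; PeriFibro, 3; Fibro, 3), or an equal volume of saline (uninjured, 2 arrays of each population). The bleomycin arrays were all labelled male and the uninjured arrays all female, so injury and sex cannot be told apart. The labels do not say that each array is a separate mouse, so the p-values below measure only the spread between these samples, which may be technical.

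Arrays detected between 39.38% and 44.36% of probes. Xist was high on all 6 uninjured arrays and Eif2s3y, a Y-linked gene, on all 8 bleomycin arrays, as the sex labels say. The 6 pericyte markers, with Pdgfrb, Cspg4 and Rgs5 among them, averaged 4.73 to 5.33 on Peri bleomycin arrays and 4.87 to 5.06 on Peri uninjured arrays, below the 5.75 to 6.65 of PeriFibro arrays (log2 intensity throughout). The 6 leukocyte markers averaged 11.57 to 12.14 on the 4 Peri arrays, against 8.23 to 9.73 on the 5 PeriFibro arrays and 10.26 to 11.49 on the 5 Fibro arrays. The pericyte label is therefore not borne out by these markers, and Peri is used below as the name of the sort gate. PeriFibro and Fibro are used likewise. In PeriFibro bleomycin and uninjured cells endothelial markers averaged 11.60 and 12.04, against 7.03 and 6.92 for fibroblast markers. In Fibro uninjured cells epithelial markers averaged 11.34 and endothelial markers 10.89, against 6.49 for fibroblast markers. Fewer cells of a type and less RNA per cell cannot be told apart in such bulk samples.

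H4 genes were highest in uninjured Peri cells, and bleomycin Peri cells were below them for every H4 gene kept. The mean level of the 12 H4 genes was 7.55 and 6.93 on the Peri bleomycin arrays, against 9.19 and 9.70 on the Peri uninjured arrays. It was 6.35, 6.78 and 7.01 in PeriFibro bleomycin cells, against 6.53 and 8.77 in PeriFibro uninjured cells. In Fibro cells it was 6.95, 7.86 and 7.24 with bleomycin, against 7.58 and 7.94 uninjured. Both Peri uninjured arrays and PeriFibro uninjured replicate 2 thus lay above every other array, while PeriFibro uninjured replicate 1 lay among the bleomycin arrays. The gap between the PeriFibro uninjured replicates was 2.45 in the median H4 gene (0.87 to 3.12, all 12 genes higher in replicate 2), larger than the median H4 difference of any comparison between groups below.

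**Figure D1:**
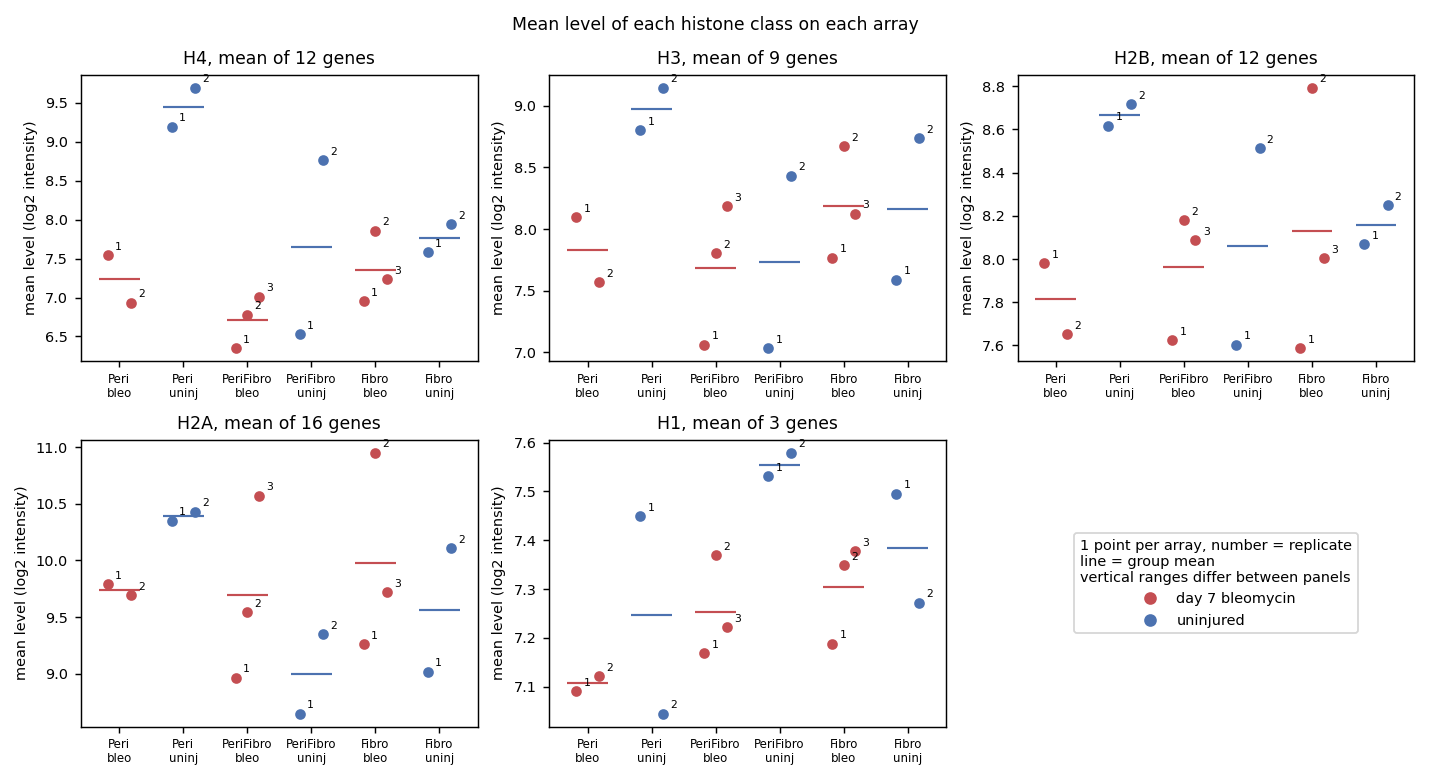
Mean level (log2 intensity) of each histone class on each array, 1 point per array with its replicate number, red for day 7 bleomycin and blue for uninjured, and a line for the group mean; vertical ranges differ between panels. The H4 means of the Peri uninjured arrays (9.19 and 9.70) lie above all others, and PeriFibro uninjured replicates 1 and 2 (6.53 and 8.77) lie far apart.

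The classes did not follow 1 common order of arrays. All 12 H4 genes were highest on Peri uninjured replicate 2, as were 24 of the 52 genes in all, whereas 11 of the 16 H2A genes were highest on Fibro bleomycin replicate 2. The H2A mean was 9.79 and 9.69 in Peri bleomycin cells, against 10.35 and 10.43 in Peri uninjured cells. It ranged between 8.96 and 10.57 over PeriFibro bleomycin arrays and between 9.26 and 10.95 over Fibro bleomycin arrays, against 8.65 and 9.35 in PeriFibro uninjured and 9.02 and 10.11 in Fibro uninjured cells. H3 genes resembled H4 genes in Peri cells, with means of 8.10 and 7.57 in bleomycin cells and 8.80 and 9.15 in uninjured cells. H2B means spanned 7.65 to 7.98 in Peri bleomycin cells and 8.62 to 8.72 in Peri uninjured cells, and the H1 means of the same groups overlapped. Between its lowest and highest array a kept gene spanned a median of 2.47 log2 units (0.67 to 4.69), against 1.69 over all genes tested, with H4 genes at 3.52 and H2B genes at 1.59.

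**Figure D2:**
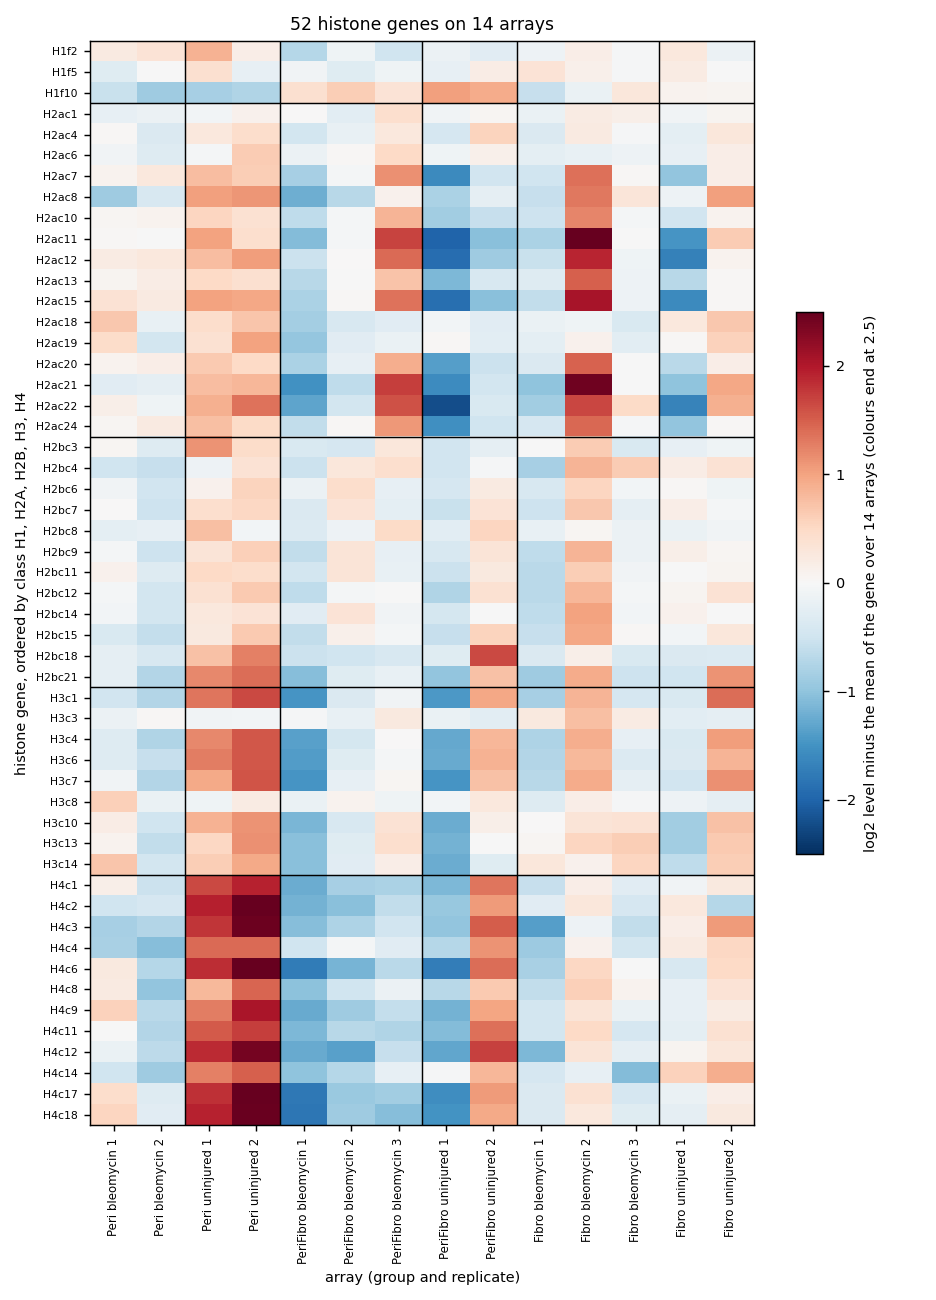
Level of each of the 52 kept histone genes on each of the 14 arrays, as log2 intensity minus the mean of the gene over all arrays, rows ordered by class and columns by group. The H4 block is red on both Peri uninjured arrays and on PeriFibro uninjured replicate 2, and the H2A block is reddest on Fibro bleomycin replicate 2 and PeriFibro bleomycin replicate 3.

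The injury comparison in Peri cells asked how histone transcripts differed at day 7 within the Foxd1-lineage, GFP-negative gate. One H4 gene, H4c14, fell, and no histone gene rose, by limma's moderated test, where a call needed an adjusted p under 0.05 together with a difference of at least 2-fold. Over all genes tested 0.0884% were called lower. H4c14 had levels of 5.50 and 5.11 in Peri bleomycin cells, against 7.26 and 7.50 in Peri uninjured cells. The difference was -2.08 ± 0.38 (SE; limma adjusted p = 0.0367), a 4.22-fold lower level, in 2 of 2 arrays. The call was lost in 7 fits that each left out 1 array, namely either Peri bleomycin array (adjusted p = 0.0862 and 0.253), either Peri uninjured array (0.168 and 0.403), PeriFibro bleomycin replicate 1 or 2 (0.0503 and 0.0712) or Fibro bleomycin replicate 1 (0.0570). Over all 29 alternative settings its adjusted p ran from 0.0104 to 0.403.

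H4c14 was lower without overlap in the other populations as well, short of the threshold. Its levels were 4.99, 5.29 and 5.79 in PeriFibro bleomycin cells, against 5.96 and 6.83 in PeriFibro uninjured cells, a difference of -1.04 ± 0.35 (SE; limma adjusted p = 0.488). In Fibro cells they were 5.58, 5.80 and 4.91 with bleomycin, against 6.58 and 6.91 uninjured, a difference of -1.32 ± 0.35 (SE; limma adjusted p = 0.104). All 8 bleomycin arrays therefore lay below all 6 uninjured arrays for H4c14, which held for 12 genes of the 12444 (0.0964%) and for no other kept histone gene. In the opposite direction 38 genes (0.305%) were separated, and no histone gene was among them.

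The other 11 H4 genes were lower in Peri bleomycin cells without passing the test. The H4 differences ran from -2.90 to -1.51, with a median of -2.09 against 0.03 over all genes, and for all 12 genes both bleomycin arrays lay below both uninjured arrays. H4c3 had the largest difference, with 6.20 and 6.29 in Peri bleomycin cells against 8.81 and 9.47 in Peri uninjured cells (-2.90 ± 0.67 SE; limma adjusted p = 0.106). H4c2 stood at 4.96 and 5.05 in Peri bleomycin cells, against 7.40 and 8.03 in Peri uninjured cells (-2.71 ± 0.55 SE; limma adjusted p = 0.0632). H4 genes differ in sequence but encode nearly the same protein, and how far a single probe also binds transcripts of such close copies was not tested, since probe sequences were not used here.

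H3, H2B and H2A genes showed smaller differences in the same comparison. Of the 9 H3 genes 7 were lower in Peri bleomycin cells (median -1.14), the most in H3c1, with levels of 6.87 and 6.62 against 8.69 and 9.0 in Peri uninjured cells (-2.1 ± 0.81 SE; limma adjusted p = 0.544). All 12 H2B genes were lower (median -0.73), and H2bc21 had levels of 7.43 and 6.92 with bleomycin against 8.86 and 9.05 uninjured (-1.78 ± 0.70 SE; limma adjusted p = 0.556). All 16 H2A genes were lower as well (median -0.52), led by H2ac8 at 4.70 and 5.20 with bleomycin against 6.62 and 6.70 uninjured (-1.71 ± 0.59 SE; limma adjusted p = 0.436). None of these passed the test. H1f2, the H1 gene with the highest signal, stood at 11.97 and 12.09 in Peri bleomycin cells and 12.61 and 11.91 in Peri uninjured cells, and overlapped.

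Over the 52 kept genes 49 were lower in Peri bleomycin cells, with a median of -0.76 (-2.90 to 0.16), where 45.90% of all genes were below 0. For 44 of them the bleomycin arrays lay below the uninjured arrays without overlap, where 19.2% of all genes did so, and the other 8 overlapped. Among the 40 genes detected on all arrays, which the detection filter could not have favoured through 1 group, 40 were lower and 36 did not overlap. Under median scaling in place of quantile normalisation the median of all genes moved to 0.41 and that of the 52 histone genes to -0.32, so that the shift relative to other genes remained while its size on the log2 scale changed. H4 genes kept a median of -1.47 under that scaling, all 12 below 0, and 24 of the 52 genes were then lower without overlap. The share of all genes lower without overlap was not computed under that scaling, so this count has no background beside it.

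**Figure D3:**
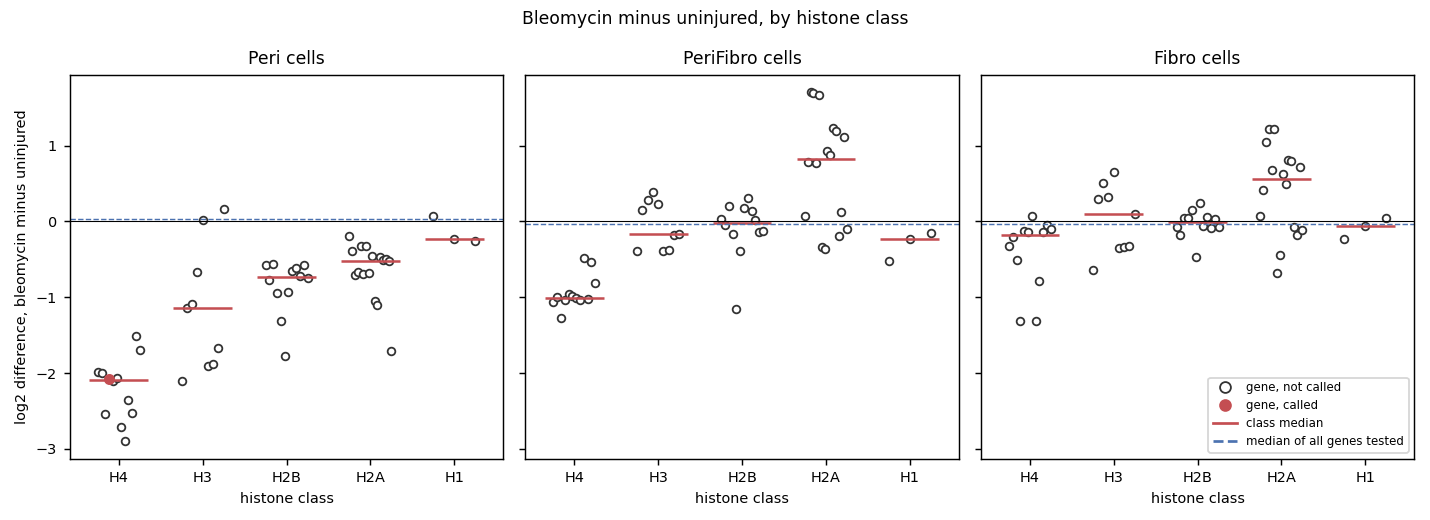
Difference in log2 level, bleomycin minus uninjured, of each kept histone gene by class in Peri, PeriFibro and Fibro cells; filled points passed the test, red lines are class medians and the dashed line is the median of all genes tested. H4 genes lie between -2.90 and -1.51 in Peri cells, and H2A genes lie mostly above 0 in PeriFibro and Fibro cells (medians 0.83 and 0.55).

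In PeriFibro and Fibro cells no histone gene passed the injury test, where 0.129% and 1.60% of all genes did. H4 genes were lower in all 12 cases in PeriFibro bleomycin cells (median -1.0), but only 1 of them did not overlap, and the median was -2.22 without PeriFibro uninjured replicate 1 and 0.23 without PeriFibro uninjured replicate 2. The direction of H4 in PeriFibro cells thus rested on uninjured replicate 2. In Fibro cells the H4 median was -0.17 and moved to 0.07 under median scaling. The 52 genes as a whole had medians of -0.14 in PeriFibro and -0.06 in Fibro cells, against -0.03 for all genes in both. Without overlap 3 genes were lower and 2 higher in PeriFibro cells (15.8% and 11.6% of all genes), and 4 lower and 1 higher in Fibro cells (12.9% and 9.56%). As shares of 52 genes these counts are below the shares of all genes.

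H2A genes ran the other way from H4 genes in these 2 populations. Their median difference was 0.83 in PeriFibro and 0.55 in Fibro cells. Above 0 were 12 and 11 of the 16 genes, with none passing the test, where 53.81% and 52.96% of all genes were below 0. How far H2A probes also bind transcripts of close copies was not tested, so these counts may not be of separate signals. H2ac15 had levels of 10.16, 10.97 and 12.31 in PeriFibro bleomycin cells, against 9.07 and 9.90 in PeriFibro uninjured cells, without overlap (1.67 ± 0.78 SE; limma adjusted p = 0.779). H2ac11 had 7.53, 8.58 and 10.30 in PeriFibro bleomycin cells, against 6.62 and 7.58 in PeriFibro uninjured cells, which overlapped (1.71 ± 1.00 SE; limma adjusted p = 0.845). In Fibro cells H2ac11 stood at 7.82, 11.30 and 8.61 with bleomycin, against 7.15 and 9.26 uninjured, and H2ac15 had the largest difference (1.21 ± 0.78 SE; limma adjusted p = 0.616). The highest value of each group came from PeriFibro bleomycin replicate 3 and Fibro bleomycin replicate 2. These are 2 of the 3 arrays that earlier results of these data set apart (the other is Fibro uninjured replicate 2), and without all 3 the H2A medians were 0.39 in PeriFibro and 0.48 in Fibro cells. The H2A median in Fibro cells was 0.01 without Fibro bleomycin replicate 2 and -0.01 without Fibro uninjured replicate 1, while in PeriFibro cells it stayed between 0.37 and 1.24 whichever array was left out.

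The gap between H2A and H2B can be read within divergent gene pairs too, whose genes are members of the same classes and so add no separate evidence. In 5 of them, H2ac7 and H2bc7, H2ac8 and H2bc8, H2ac11 and H2bc11, H2ac12 and H2bc12, and H2ac15 and H2bc15, the genes are transcribed away from each other and 252 to 279 bases around their start sites are the same DNA. In PeriFibro cells the injury differences of the 5 H2A genes were 1.12, -0.10, 1.71, 1.69 and 1.67, against 0.01, -0.13, 0.04, -0.05 and -0.17 for their H2B partners. In Fibro cells they were 0.72, -0.11, 1.04, 1.21 and 1.21 for H2A, against -0.08, 0.04, -0.08, -0.18 and 0.04 for H2B. The H2A member was thus above its partner by over 0.7 in 4 of the 5 pairs in both populations, and in Peri cells both members of every pair were lower. None of these differences passed the test. Among bleomycin arrays of their group all 5 H2A genes were highest on PeriFibro replicate 3 and on Fibro replicate 2. H2bc8 was detected on only 3 arrays.

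Whether the response itself differed between populations was tested as a contrast of contrasts. No histone gene passed. The response of Peri minus that of PeriFibro cells had a median of -1.07 over the 52 genes (lowest limma adjusted p = 0.799), with 0 of 12444 genes called. The response of Peri minus that of Fibro cells had a median of -1.26 (lowest limma adjusted p = 0.168, for H4c2), with 0.482% of all genes called, and that of PeriFibro minus Fibro cells 0.04, with 0.129% called. At an unadjusted p under 0.05 there were 3, 5 and 0 of the 52 histone genes in these contrasts, where 652, 1151 and 417 of all 12444 genes were. As shares the histone counts were near or below those of all genes. A larger fall in Peri cells than in the other populations is therefore not shown by this test.

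Among uninjured cells Peri cells had higher H4 levels than either GFP-positive population. Against PeriFibro cells 6 histone genes passed as higher (H4c2, H4c6, H4c17, H4c18, H3c14 and H2bc3) and 1, H1f10, as lower, where 10.2% and 14.6% of all genes were called. Against Fibro cells 3 passed as higher (H4c2, H4c17 and H4c18) and none as lower, where 8.88% of all genes were called higher. With 6 and 3 of 52 genes, histone genes were called higher at a share near that of all genes. The medians over the 52 genes were 1.32 against PeriFibro and 0.88 against Fibro cells, where all genes had -0.05 and -0.03. All 12 H4 genes were higher in Peri cells without overlap in both comparisons, with medians of 1.80 and 1.68. The H4 median against PeriFibro cells was 0.57 without PeriFibro uninjured replicate 1 and 3.0 without PeriFibro uninjured replicate 2, and that of the 52 genes 0.55 and 1.91. Against Fibro cells the median of the 52 genes was 0.40 without Fibro uninjured replicate 1 and 1.30 without Fibro uninjured replicate 2. Without overlap 41 genes were higher and 1 lower against PeriFibro cells (31.0% and 37.0% of all genes), and 36 higher and 1 lower against Fibro cells (28.4% and 31.5%).

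H4c2, H4c17 and H4c18 passed both comparisons. H4c2 had levels of 7.40 and 8.03 in Peri, 4.52 and 6.53 in PeriFibro and 5.73 and 4.76 in Fibro uninjured cells, so that both Peri arrays lay above the other 4. Its difference was 2.19 ± 0.55 against PeriFibro cells (SE; limma adjusted p = 0.0111) and 2.47 ± 0.55 against Fibro cells (SE; limma adjusted p = 0.00744). H4c17 had levels of 9.40 and 10.05 in Peri, 6.02 and 8.64 in PeriFibro and 7.39 and 7.74 in Fibro uninjured cells (2.40 ± 0.68, adjusted p = 0.0206, and 2.16 ± 0.68, adjusted p = 0.0392; SE, limma). H4c18 had 9.94 and 10.49 in Peri, 6.52 and 8.96 in PeriFibro and 7.79 and 8.25 in Fibro uninjured cells (2.48 ± 0.64, adjusted p = 0.0123, and 2.19 ± 0.64, adjusted p = 0.0275; SE, limma). The 3 calls against PeriFibro cells were lost without PeriFibro uninjured replicate 1 (adjusted p = 0.118 to 0.209) and without Peri uninjured replicate 2 (0.0971 to 0.145). Those against Fibro cells were lost without Peri uninjured replicate 2 (0.0751 to 0.220) and without Fibro uninjured replicate 2 (0.0668 to 0.10). H4c17 and H4c18 were also not called against Fibro cells without replicate 1 of either group, nor was H4c17 without PeriFibro bleomycin replicate 2 or Fibro bleomycin replicate 3 (0.0528 and 0.0519). H4c6 passed against PeriFibro cells only, with 9.65 and 10.57 in Peri against 6.08 and 9.20 in PeriFibro uninjured cells (2.47 ± 0.83 SE; limma adjusted p = 0.0470), and it missed the threshold in 16 of 29 alternative settings, 10 of them fits without a single array.

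The DNA upstream of these genes is shown because 4 of the 6 genes higher in Peri than in PeriFibro cells encode H4 and because H4c17 and H4c18 had nearly equal differences. The 120 bases before the start site, read on the gene's strand from RefSeq (GRCm38.p6), are given for H4c17 (chr13:21811626-21811745, plus strand), H4c18 (chr13:21832198-21832317, minus strand), H4c6 (chr13:23551669-23551788, minus strand), H4c2 (chr13:23756817-23756936, plus strand), H3c14 (chr3:96246565-96246684, plus strand), H2bc3 (chr13:23746614-23746733, plus strand) and H1f10 (chr6:87981483-87981602, minus strand). Capitals mark 4 motifs on either strand. These are GGTCC (the core of the H4 site bound by HINFP), TATAAA (the TATA box), CCAAT (the box bound by NF-Y) and the octamer ATTTGCAT, bound by POU2F1.
H4c17: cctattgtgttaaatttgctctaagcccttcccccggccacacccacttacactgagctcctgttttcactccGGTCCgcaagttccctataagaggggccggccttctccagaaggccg
H4c18: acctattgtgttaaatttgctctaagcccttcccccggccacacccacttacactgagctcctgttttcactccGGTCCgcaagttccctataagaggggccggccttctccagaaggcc
H4c6: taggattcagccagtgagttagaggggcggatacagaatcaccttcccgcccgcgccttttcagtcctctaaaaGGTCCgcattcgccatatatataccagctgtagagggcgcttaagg
H4c2: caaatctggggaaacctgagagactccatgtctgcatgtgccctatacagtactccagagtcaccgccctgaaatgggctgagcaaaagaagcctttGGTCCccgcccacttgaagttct
H3c14: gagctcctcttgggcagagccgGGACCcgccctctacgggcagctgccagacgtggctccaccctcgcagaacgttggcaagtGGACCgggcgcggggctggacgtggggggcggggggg
H2bc3: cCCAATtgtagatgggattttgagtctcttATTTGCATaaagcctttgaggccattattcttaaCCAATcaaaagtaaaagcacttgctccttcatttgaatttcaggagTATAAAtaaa
H1f10: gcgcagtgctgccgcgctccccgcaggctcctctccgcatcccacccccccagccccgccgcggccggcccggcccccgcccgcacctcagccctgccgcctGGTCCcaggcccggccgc
The upstream bases of H4c17 and H4c18 are identical at 120 of 120 positions after a shift of 1 base, while the next most alike H4 pair shared 57.5%. Whether their probes read the same transcripts was not tested.

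Promoters were available for 47 of the 52 genes. In the 250 bases upstream GGTCC occurred in 10 of 11 H4 promoters, all on the gene strand, where 25.7% of the 27025 promoters of all genes held it on that strand and 42.9% on either. Its first base lay 46 or 47 bases before the start site in H4c3, H4c4, H4c6, H4c9, H4c17 and H4c18, and 23, 5, 18 and 32 bases before it in H4c2, H4c8, H4c11 and H4c12. The octamer ATTTGCAT was found in 6 of 16 H2A promoters, none on the gene strand, and in 6 of 10 H2B promoters, all on the gene strand. No H1, H3 or H4 promoter held it, against 1.81% of all genes on either strand. For H2ac8 with H2bc8 and H2ac12 with H2bc12 the match lies in shared DNA and is counted in both classes. CCAAT was in all 16 H2A and all 10 H2B promoters but in 3 of 11 H4 promoters, against 37.5% of all genes. TATAAA was in 21 of 47 (44.7%), against 14.3%. H3c14 held GGTCC on the opposite strand only, printed as GGACC, 98 and 37 bases before the start. The H1f10 promoter, from a gene outside the clusters, held a GGTCC but none of the other 3 motifs in the bases printed. A match in a sequence is a description and not a bound site.

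**Figure D4:**
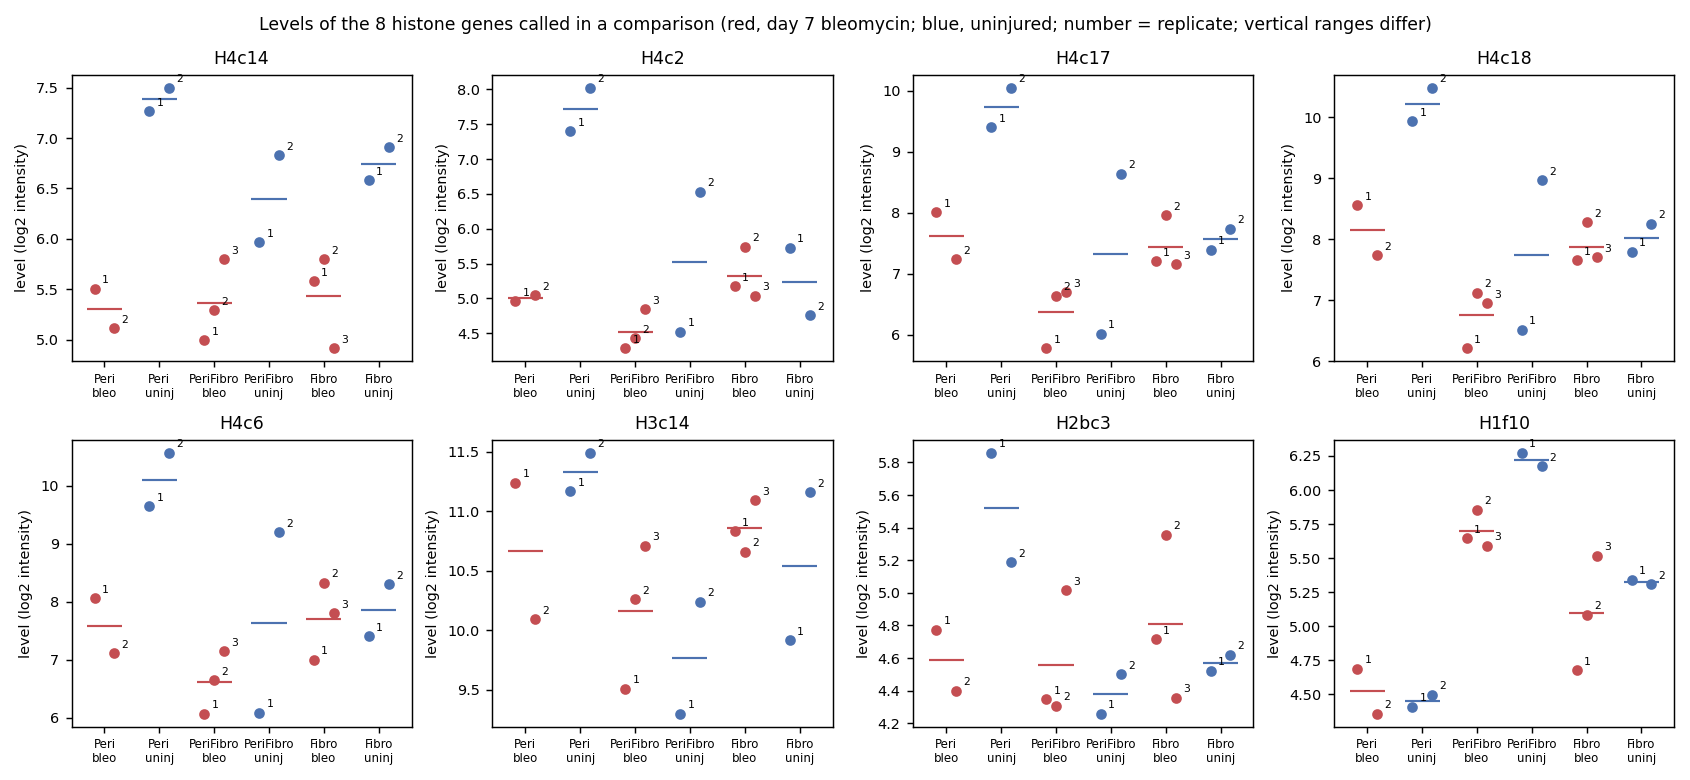
Levels (log2 intensity) of the 8 histone genes that passed the test in any comparison, 1 point per array with its replicate number, red for day 7 bleomycin and blue for uninjured, lines for group means; vertical ranges differ. The 5 H4 genes are highest on both Peri uninjured arrays, and the group means of H1f10 are lowest in Peri cells with and without bleomycin.

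H3c14 and H2bc3 passed against PeriFibro cells but not against Fibro cells. H3c14 had 11.17 and 11.49 in Peri against 9.30 and 10.24 in PeriFibro uninjured cells (1.56 ± 0.52 SE; limma adjusted p = 0.0448), but its second kept probe differed by -1.03 without overlap (limma adjusted p = 0.0943), so the direction of the gene is unsettled. H2bc3 had 5.86 and 5.19 in Peri against 4.26 and 4.50 in PeriFibro uninjured cells, where it was not detected, so it was at least 1.70-fold higher (limma adjusted p = 0.0369). The H2bc3 call was lost without Peri uninjured replicate 1 (0.237) or either PeriFibro uninjured array (0.183 and 0.0881), and H3c14 missed the threshold without any of 6 single arrays (0.0580 to 0.301). Over the 19 genes with more than 1 kept probe, the probes had the same sign in 16 in this comparison and in 17 in the Peri injury comparison, but in only 12 and 11 in the PeriFibro and Fibro injury comparisons. The second probe of H4c2 gave 1.89 against PeriFibro cells, where it passed the test, and -1.97 for bleomycin in Peri cells.

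H1f10, a linker histone gene outside the clusters with a polyadenylated transcript, is not replication-dependent and ran opposite to most members. It had levels of 4.41 and 4.50 in Peri against 6.27 and 6.17 in PeriFibro uninjured cells, and 5.34 and 5.31 in Fibro uninjured cells. Peri cells were not above background, so the level was at least 2.71-fold lower than in PeriFibro cells (limma adjusted p = 0.000433). At day 7 of bleomycin it stood at 4.69 and 4.36 in Peri, 5.64, 5.86 and 5.59 in PeriFibro and 4.68, 5.08 and 5.52 in Fibro cells, at least 1.92-fold lower in Peri than in PeriFibro cells (limma adjusted p = 0.00444). The second H1f10 probe differed by -0.64 in uninjured cells and did not pass (limma adjusted p = 0.153). Without Peri bleomycin replicate 2 the day 7 difference missed the threshold narrowly (adjusted p = 0.0503).

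At day 7 of bleomycin no histone gene other than H1f10 passed between populations. The 52 genes had medians of 0.04 for Peri against PeriFibro, -0.23 for Peri against Fibro and -0.34 for PeriFibro against Fibro cells, where all genes had -0.02, -0.01 and 0.04 and 11.2% (lower), 7.53% and 6.09% of all genes were called. Without overlap 7, 1 and 1 genes were higher (26.1%, 22.5% and 13.6% of all genes) and 2, 2 and 8 lower (27.5%, 21.2% and 9.58%). Leaving out 1 array turned the sign of each of these medians, to -0.23 without PeriFibro bleomycin replicate 1 for Peri against PeriFibro cells, and to 0.09 and 0.08 without Fibro bleomycin replicate 2 for the comparisons with Fibro cells. H4 genes were lower in PeriFibro than in Fibro bleomycin cells in 11 of 12 cases, 6 without overlap (median -0.73), and no gene passed. Between uninjured PeriFibro and Fibro cells no histone gene passed either (2.35% of all genes did), and 3 were higher and 6 lower without overlap (27.1% and 20.9%).

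Genes of DNA replication and mitosis did not follow H4 in the injury comparisons. The 39 DNA replication genes averaged 7.23 and 7.42 in Peri bleomycin cells, against 7.31 and 7.09 in Peri uninjured cells, and the 16 mitosis genes 6.36 and 6.42 against 6.22 and 5.81. Their median injury differences in Peri cells were 0.17 and 0.35, while H4 was at -2.09. In PeriFibro and Fibro cells the DNA replication medians were 0.37 and 0.50 and the mitosis medians 0.53 and 0.91, with 34 of 39 and 14 of 16 genes above 0 in each population. Over all genes 53.81% (PeriFibro) and 52.96% (Fibro) were below 0 in these comparisons. One gene of each list passed, both in Fibro cells: Uhrf1, which couples DNA methylation to replication (1.71 ± 0.30 SE; limma adjusted p = 0.0149), and the mitotic kinase gene Plk1 (1.35 ± 0.30 SE; limma adjusted p = 0.0472). Among uninjured cells 3 of the 39 DNA replication genes were called higher in Peri cells against PeriFibro cells and 6 against Fibro cells, with none lower, where 10.2% and 8.88% of all genes were called higher (medians 0.33 and 0.40). Cdt1, which licenses replication origins, passed in both (3.22, limma adjusted p = 4.1e-05, against PeriFibro cells and 2.25, adjusted p = 0.000745, against Fibro cells). Pold1, the catalytic subunit of DNA polymerase delta, did so too (1.41 and 1.83, limma adjusted p = 0.0162 and 0.00493). Of the 16 mitosis genes Ndc80, a kinetochore gene, was called higher in both (1.43 and 1.85), and 1 gene was called lower in each. Fibro bleomycin replicate 2, where 11 of 16 H2A genes peaked, was also highest for both lists (7.66 and 7.08).

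**Figure D5:**
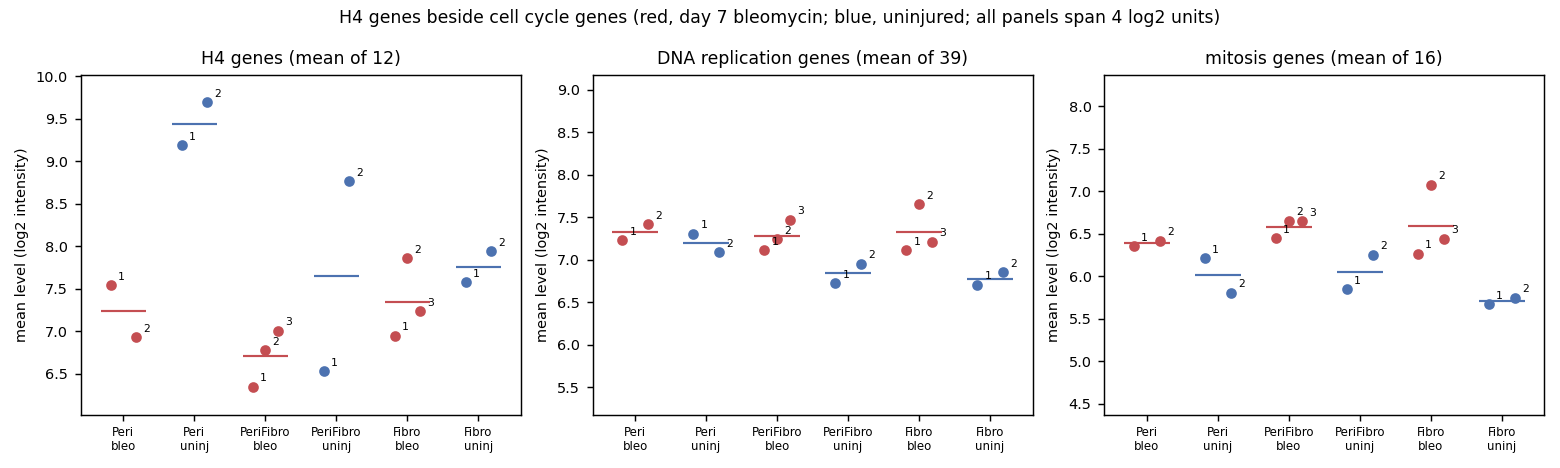
Mean level (log2 intensity) of the 12 H4, 39 DNA replication and 16 mitosis genes on each array, 1 point per array with its replicate number, red for day 7 bleomycin and blue for uninjured, lines for group means; every panel spans 4 log2 units. H4 differs by over 2 units between Peri groups (7.55 and 6.93 with bleomycin, 9.19 and 9.70 uninjured), whereas the DNA replication means of the same 4 arrays lie between 7.09 and 7.42.

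Genes that act on histone mRNA or on histones showed no injury call in any population. Of 21 genes for histone transcription and mRNA 3' processing 17 were tested, with Npat (detected on 5 arrays) and Lsm11 (on 2) among them. Slbp, of the same list, was not among the genes tested. None of the 17 passed in any of the 9 comparisons (injury medians -0.15, -0.19 and -0.09 in Peri, PeriFibro and Fibro cells). Of 24 histone chaperones 23 were tested and none passed an injury comparison, while Tonsl, which reads new H4 at replication forks, was higher in uninjured Peri than in PeriFibro (1.28) and Fibro cells (1.45). Of 11 replacement variants 10 were tested, with injury medians of -0.03, 0.09 and 0.25. Cenpa, the centromeric H3 variant, was higher in Peri than in PeriFibro uninjured cells, at 11.97 and 11.57 against 9.33 and 9.41 (2.40 ± 0.49 SE; limma adjusted p = 0.00303).

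Other measures moved with the histone arrays, and their part in these results was not tested. Small RNAs without a poly(A) tail were measured by 4 genes of 7, whose mean was 8.17 and 8.68 on Peri uninjured arrays and 8.12 on PeriFibro uninjured replicate 2, the 3 highest values, as for H4, against 7.12 to 8.05 on the other 11. Snora65, a small nucleolar RNA, was higher in Peri than in PeriFibro uninjured cells (2.47; limma adjusted p = 0.0362), as was Snora70 (1.63; limma adjusted p = 0.00232), and both were higher than in Fibro uninjured cells (2.81 and 1.41). Snord123 of the same list was lower in Peri than in Fibro uninjured cells (-1.32; limma adjusted p = 0.0165). How the RNA was primed for labelling is not given in the sources used here. Among cell types, the 6 neutrophil markers averaged 12.56 and 11.52 in Peri bleomycin cells and 12.11 and 12.69 in Peri uninjured cells, and the 6 leukocyte markers 11.81 and 11.57 against 11.94 and 12.14. The 7 macrophage markers averaged 8.12 and 9.04 in Peri bleomycin cells against 6.45 and 6.36 in Peri uninjured cells. That mean was higher through C1qa, C1qb, C1qc, Mrc1 and Marco. Adgre1 went the other way (8.65 and 8.48 against 9.33 and 9.52), as did Csf1r (9.64 and 8.76 against 10.29 and 10.53). The 6 fibroblast markers averaged 5.47 and 7.07 in Peri bleomycin cells against 5.13 and 5.03 in Peri uninjured cells. On the PeriFibro uninjured arrays, which differed by 2.45 in H4, the leukocyte means were 8.23 and 9.0. Mitochondrially encoded genes averaged between 11.46 and 11.62 in Peri bleomycin cells, below the 11.79 to 12.63 of Peri uninjured cells. Their means on the PeriFibro uninjured arrays spanned 11.83 to 12.85.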

How the data were processed

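RNA from sorted mouse lung cells was measured on 14 single-colour bead arrays. The study's methods report that outlier samples, poorly hybridised, were found by principal component analysis and taken out. Whether any of them are among these 14 arrays is not given in the sources used here. The authors deposited an unnormalised signal intensity and a detection p-value for 45281 probes, and log2 values that they had variance-stabilised and quantile-normalised with lumi (version not given in the sources used here). Intensities were background-corrected from the detection p-values and quantile-normalised with an offset of 16, as in neqc of limma 3.58.1 (R 4.3.3), and log2-transformed. Each of the 12444 genes with a kept probe was represented by its probe with the highest mean. The 10378 probes without a gene symbol and 18 with several were left out.

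All 6 groups were fitted in 1 linear model (lmFit, contrasts.fit, eBayes; 8 residual and 3.43 prior degrees of freedom), two-sided, with Benjamini-Hochberg adjustment over all genes. A gene was called where its adjusted p was under 0.05 and its difference at least 2-fold, as in the study's methods. Where a group was not detected on any array, the fold is a lower bound measured from the lowest detected signal. The scripts were tested on simulated data. Genes named are all called members, the member of each class with the highest mean and with the largest difference in each injury comparison, and called companion genes; other named genes are list members given for orientation. H1f1 and the other genes at the detection threshold, the 5 divergent pairs and the H4 promoters were picked after their values were seen. Members and lists were chosen with earlier results of these data known. Alternatives were the deposited values, other scaling, background, filter, probe and model choices, and leaving out each array. The number of arrays limits precision, and sequences came from RefSeq promoters.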

Additional observations from a re-analysis of the deposited data

How the results depend on the processing

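Counts of called histone genes (1 in the Peri injury comparison, 7 and 3 for uninjured Peri against PeriFibro and Fibro cells, 1 for Peri against PeriFibro cells at day 7) moved under these settings. The Peri injury count was 0 with the deposited log2 values, median scaling, no background correction, no detection filter, only the groups compared or a replicate block, 2 with a trended robust prior, 4 with array weights, and 3 without the 3 arrays set apart in earlier results of these data (PeriFibro bleomycin replicate 3, Fibro bleomycin replicate 2 and Fibro uninjured replicate 2). For uninjured Peri against PeriFibro cells it was 4 with the deposited values, median scaling, no background correction or no filter, 3 with an offset of 50, 11 with detection p under 0.01 on 3 arrays, 18 with only the groups compared, 15 with the block, and 22 with array weights or without those 3 arrays. For uninjured Peri against Fibro cells it was 1 with no filter or array weights, 9 with only the groups compared, and 12 without the 3 arrays. At day 7 the single call became 0 with the deposited values, no background correction, an offset of 50, the mean of the kept probes, or without the linker genes outside the clusters. The range of the mean histone level over arrays, 1.87, was 1.14 in the deposited values. Leaving out 1 array gave 0 to 6 calls in the Peri injury comparison, 1 (without PeriFibro uninjured replicate 1) to 19 (without PeriFibro uninjured replicate 2) and 0 to 11 for uninjured Peri against PeriFibro and Fibro cells, 0 to 1 for uninjured PeriFibro against Fibro cells and for Peri against Fibro cells at day 7, 1 to 3 for Peri against PeriFibro cells at day 7, and 0 otherwise. Where a group was left with 1 array, it was assumed to vary like the others. Under the other settings 131 of 160 counts and level ranges were rated as unchanged. A count was so rated if it stayed within 1.5 times, or at 0 where it had been 0. The level range was so rated if it moved by less than the standard deviation within groups. Counts that were 0 throughout are among the 131, so this figure says little about the other counts. Only differences called in the main fit were followed by gene through the settings. For these, 137 of 178 values stayed past the threshold, and none changed sign. Named differences that were not called were not followed, so nothing is said of their stability here. Class medians did change sign, as given beside them, and the median over the 52 genes ran from -0.41 to 0.41 (PeriFibro) and from -0.32 to 0.20 (Fibro) in the injury comparisons when 1 array was left out. The cause of these changes was not tested. Whether arrays of equal replicate number share animals cannot be told from these values. Over 31 pairs of equal number the correlation of deviations ran from -0.44 to 0.69, with 10 above 0.1 and 8 below -0.1. These pairs include bleomycin with uninjured arrays, and in groups of 2 the deviations of the replicates mirror each other. Between uninjured populations the correlations were 0.26, 0.04 and 0.09 for replicate 1, and between bleomycin populations they ran from -0.41 to 0.54.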
